A study of Homo sapiens with 22 samples.

Results

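NB4 and MOLM-13 are human acute myeloid leukemia (AML) cell lines, and their messenger RNA was compared here in cells that received the vehicle dimethyl sulfoxide (DMSO) and no FP54. FP54 is a degrader of FTO, an eraser of the m6A mark on RNA. The members are all genes with a mean of at least 1 RPKM (reads per kilobase of gene length, scaled to the library's reads on genes) over the 6 DMSO libraries, 3 per line. That left 9955 genes of the 20411 in the tables, after 45 genes of chromosome Y were set aside. Both lines carry the label wild type, were given DMSO for 48 hours, and are called untreated only in that sense. Further RNA-seq libraries of the same lines, 3 per line with 2 μM FP54 for 48 hours, are used below only as a second look at the difference between lines. Of the 22 samples in the series, 10 others (m6A-seq and polysome-seq) were not used here. Each group is a single established cell line and not a set of patients, and no source used here says whether the replicates were separate cultures, so p-values measure the spread between these libraries, which may be technical. The lines sit in separate tables, and whether they were sequenced together is not given in the sources used here.

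MOLM-13 is known to carry a KMT2A::MLLT3 fusion and an internal duplication in the receptor kinase FLT3, and to look like a monocytic leukemia. NB4 is known for the PML::RARA fusion of acute promyelocytic leukemia. KMT2A fusions are known to keep the HOXA genes and MEIS1 switched on, while PML::RARA holds cells at the promyelocyte stage, at which the azurophil granules are filled with MPO and serine proteases. None of these fusions is read by gene-level counts.

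The DMSO libraries held 16299701 to 17346913 reads on genes in MOLM-13 and 20654055 to 22344266 in NB4 cells. The median SD of log2(RPKM + 0.1) within a line was 0.178 in MOLM-13 and 0.157 in NB4, and the first principal component, which separated the lines, held 95.2% of the variance. MOLM-13 replicate 2 stood apart from replicates 1 and 3 on the second component (2.21% of the variance). Its values are given for some genes, and others are given as mean and SD only. By chi-square per degree of freedom over recovered reads, replicate 2 differed most in both lines. In MOLM-13 it gave 30.5 and 32.3 against replicates 1 and 3, which gave 16.6 between them. In NB4 these values were 40.6, 30.4 and 14.3. The pseudoautosomal genes, among them the receptor genes IL3RA and CSF2RA, could not be compared: 17 of 18 are listed at 0 in all 6 libraries and none reached the filter. Whether reads were counted by strand is not given in the sources used here. Reads of a gene that overlaps another on the opposite strand may then be shared, which applies to 31 of the genes named, among them FTO, CFD, CD52, STAB1, ITGA4, CCND1, IGF2BP3, PRF1 and METTL7B.

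A gene was called different at a Benjamini-Hochberg adjusted p below 0.05 in limma, over all 9955 genes, and a log2 difference of at least 1, always given as NB4 minus MOLM-13. By this rule 4230 genes differed, which is 42.5% of those tested. NB4 was the higher line for 2307 genes (23.2%) and MOLM-13 for 1923 (19.3%), and the remaining 5725 were not called. Groups of 3 libraries did not overlap for 79.0% of all genes, so the absence of overlap alone sets no gene apart here. With 3 libraries a line, 0.1 is the smallest two-sided p that exact permutation could give. The median difference over all genes was 0.12, and 32.1% of genes differed by less than 0.5. Calls near the limit, such as those of F3, HOXA11, KLF4, CBLL1, MCL1, SOX4, WT1, CLEC11A and HPRT1, did not hold under every alternative. At the far end, 177 called genes were higher in NB4 and 274 higher in MOLM-13 by a log2 difference of at least 4. Over the 8646 genes with at least 1 RPKM in each line, 35.2% were called (1757 higher in NB4 and 1286 in MOLM-13). A gene near 0 in one line passed the filter only where the other line was high, so the counts over most gene lists are followed by those over members with at least 1 RPKM in each line.

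**Figure D1:**
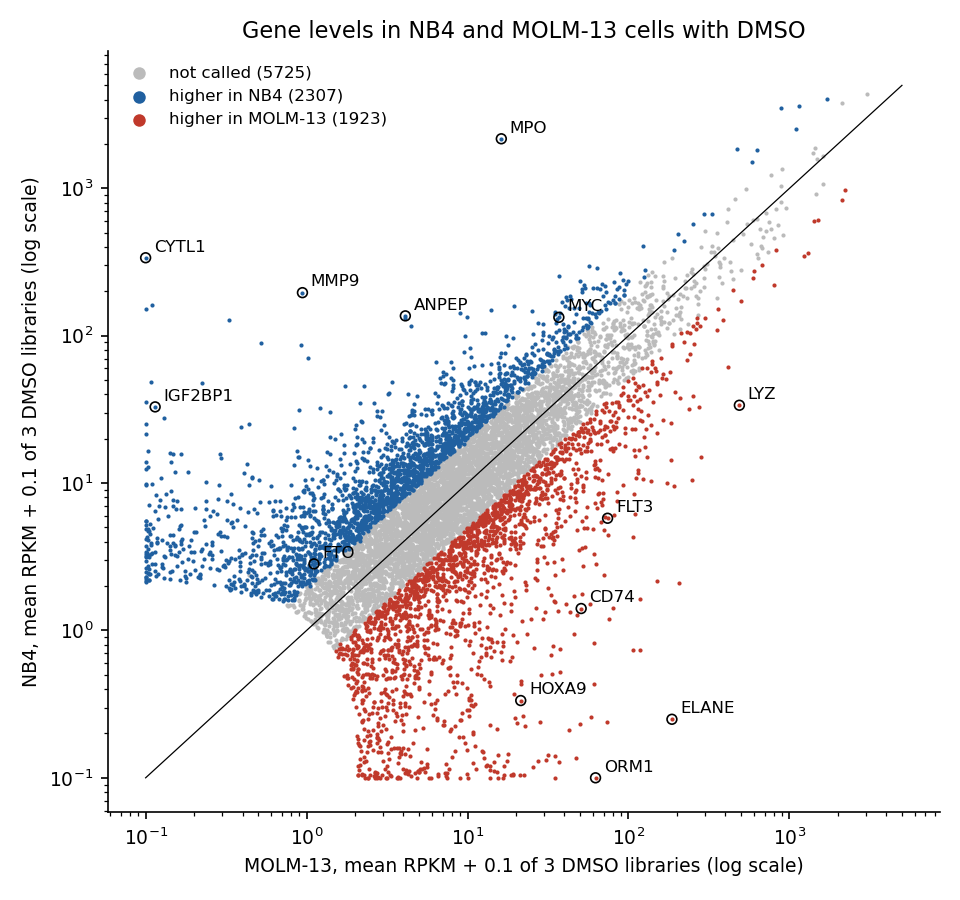
Mean RPKM + 0.1 of 3 DMSO libraries in MOLM-13 (x axis) and NB4 (y axis), both on log scales, for 9955 genes, coloured by call, with the diagonal marking equal levels. MPO lies far above the diagonal at 16.1 and 2170.2 RPKM, ELANE far below it at 186 and 0.150 RPKM, and the empty lower left corner is the filter.

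The granule genes separated the lines sharply, and not all in the same direction. In bulk RNA, fewer cells with a message and less of it per cell cannot be told apart, here and in what follows. MPO, the peroxidase that makes hypochlorous acid, was at 18.1, 12.8 and 17.4 RPKM in MOLM-13 replicates 1 to 3 and at 2036, 2263 and 2211 RPKM in NB4. Every NB4 library was far above every MOLM-13 library, with a log2 difference of 7.08 ± 0.150 (SE, adjusted p = 7.06e-11, limma). ELANE, neutrophil elastase, went the other way, at 228, 154 and 176 RPKM in MOLM-13 and 0.0942, 0.137 and 0.218 RPKM in NB4, where the 3 libraries together held 10 reads on it. Its log2 difference was -9.55 ± 0.205 (SE, adjusted p = 7.15e-11, limma), the largest toward MOLM-13 of all genes tested. Next to ELANE on the short arm of chromosome 19 lie PRTN3 (proteinase 3), AZU1 (azurocidin) and CFD (complement factor D), and PRSS57 (a serine protease of the same granules) lies further toward the chromosome end. PRTN3 was at 508, 302 and 429.9 RPKM in MOLM-13 and 55.2, 69.0 and 58.7 RPKM in NB4, with MOLM-13 replicate 2 lowest of its line but above every NB4 library. AZU1 stood at 186, 167 and 170.0 RPKM in MOLM-13 and 8.91, 11.7 and 9.24 RPKM in NB4. The log2 differences were -2.73 for PRTN3, -4.12 for AZU1, -3.64 for CFD and -1.74 for PRSS57, all called.

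The start regions of 3 of these neighbouring genes are shown because the genes were called together in MOLM-13. They run from 250 bases before to 50 bases after the start site, in RefSeq GRCh38.p14, all on the plus strand. AZU1 lies at chr19:827587-827886, PRTN3 at chr19:840749-841048 and CFD at chr19:859414-859713. Capitals mark matches on either strand to GAGGAA, a core of PU.1 sites, and to TTGNNNAA, a loose form of C/EBP sites.
AZU1: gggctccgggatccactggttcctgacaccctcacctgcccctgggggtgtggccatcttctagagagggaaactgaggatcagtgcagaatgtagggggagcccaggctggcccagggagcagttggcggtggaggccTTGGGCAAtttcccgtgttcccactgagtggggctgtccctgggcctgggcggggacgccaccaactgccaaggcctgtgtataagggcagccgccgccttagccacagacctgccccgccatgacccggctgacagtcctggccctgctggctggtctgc
PRTN3: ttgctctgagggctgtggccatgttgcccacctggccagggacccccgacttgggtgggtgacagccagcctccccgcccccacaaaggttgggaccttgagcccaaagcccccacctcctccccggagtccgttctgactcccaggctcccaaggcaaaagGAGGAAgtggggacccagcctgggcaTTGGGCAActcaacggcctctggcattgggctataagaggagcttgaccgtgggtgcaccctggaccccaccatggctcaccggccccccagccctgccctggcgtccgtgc
CFD: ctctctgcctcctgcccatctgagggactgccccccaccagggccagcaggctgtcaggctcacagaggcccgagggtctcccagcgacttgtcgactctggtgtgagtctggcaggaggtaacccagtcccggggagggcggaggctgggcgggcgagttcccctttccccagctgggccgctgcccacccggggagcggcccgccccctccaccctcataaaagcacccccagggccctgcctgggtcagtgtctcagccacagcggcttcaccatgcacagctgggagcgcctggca
AZU1 and PRTN3 hold the same TTGGGCAA match, and PRTN3 alone of the 3 holds GAGGAA. In CFD, and in the window of PRSS57 (chr19:695403-695702, minus strand), these letters were not found. Over all 35116 RefSeq windows of this length, 27.9% hold GAGGAA and 33.4% hold TTGNNNAA, so the matches are a description and nothing more. RefSeq windows for ELANE and MPO were not in the table used. Among the factors of such sites, SPI1 (PU.1) was at 155 ± 11.9 RPKM in MOLM-13 and 80.2 ± 13.4 RPKM in NB4 (SD, n = 3 per line). CEBPA was at 98.8 ± 10.9 and 38.7 ± 2.35 RPKM. CEBPA was called higher in MOLM-13 (log2 difference -1.35), and SPI1 fell short of the 2-fold limit (-0.96). CEBPE, another C/EBP factor, was called higher in NB4. Whether any of them acts on these genes was not tested.

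In the whole list of azurophil granule proteins, 15 of 16 genes passed the filter, 10 were higher in MOLM-13, MPO alone was higher in NB4, and 4 were not called. Of 13 with at least 1 RPKM in each line, 8 were higher in MOLM-13 and 1 in NB4. Over the 15 tested, 66.7% were higher in MOLM-13 and 6.67% in NB4, beside 19.3% and 23.2% of all genes. The list's median log2 difference was -1.74, beside 0.12 over all genes. BPI, a protein that kills Gram-negative bacteria, had 49.5 ± 5.87 RPKM in MOLM-13 and 0.131 ± 0.0160 RPKM in NB4 (SD, n = 3, log2 difference -7.74). LYZ, lysozyme, was at 489 ± 36.1 and 33.6 ± 1.71 RPKM. SERPINB1, an inhibitor of these proteases, also had the higher level in MOLM-13, by -3.26. CTSG (cathepsin G), RNASE3, CST7 and MS4A3 were the members not called. CTSG was at 134, 91.3 and 124 RPKM in MOLM-13 and 49.9, 66.8 and 58.8 RPKM in NB4, close to the limit at -0.98, and MS4A3 was the only one of these 4 with a positive value (0.62). Of the 15 tested genes 5 lie on chromosome 19, whose own median is given with the chromosomes.

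Specific and gelatinase granules, which form later in neutrophil maturation, were nearly silent. Only 3 of 12 listed genes passed the filter, and LTF (lactoferrin), LCN2, MMP8, CEACAM8 and OLFM4 had means of at most 0.150 RPKM in either line. MMP9, gelatinase B, was the exception in NB4, at 201, 229 and 158 RPKM against 0.802, 0.788 and 0.938 RPKM in MOLM-13 (log2 difference 7.69 ± 0.157 (SE), adjusted p = 7.05e-11, limma). CHI3L1, a chitinase-like protein, was higher in MOLM-13 (-3.37), and PTX3 was not called (-0.96). Of the 2 with at least 1 RPKM in each line, 1 was higher in MOLM-13 and 0 in NB4, since MMP9 was under 1 RPKM in MOLM-13. The phagocyte NADPH oxidase, which makes superoxide, was split by subunit. Its cytosolic parts NCF1 (-3.90) and NCF4 (-1.56) and the GTPase RAC2 (-1.44) were higher in MOLM-13. CYBB, the membrane-bound catalytic subunit, was at 10.3, 10.0 and 10.9 RPKM in MOLM-13 and 29.8, 24.5 and 30.6 RPKM in NB4, and was called higher in NB4 (1.43), as was RAC1 (1.54). CYBA and HVCN1 were not called. Of 8 tested genes, 4 were higher in MOLM-13 (50%, beside 19.3% of all genes) and 2 in NB4 (25%, beside 23.2%). With at least 1 RPKM in each line these were 3 and 2 of 7. The largest difference in the list, -4.75, was that of a further member not named here.

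**Figure D2:**
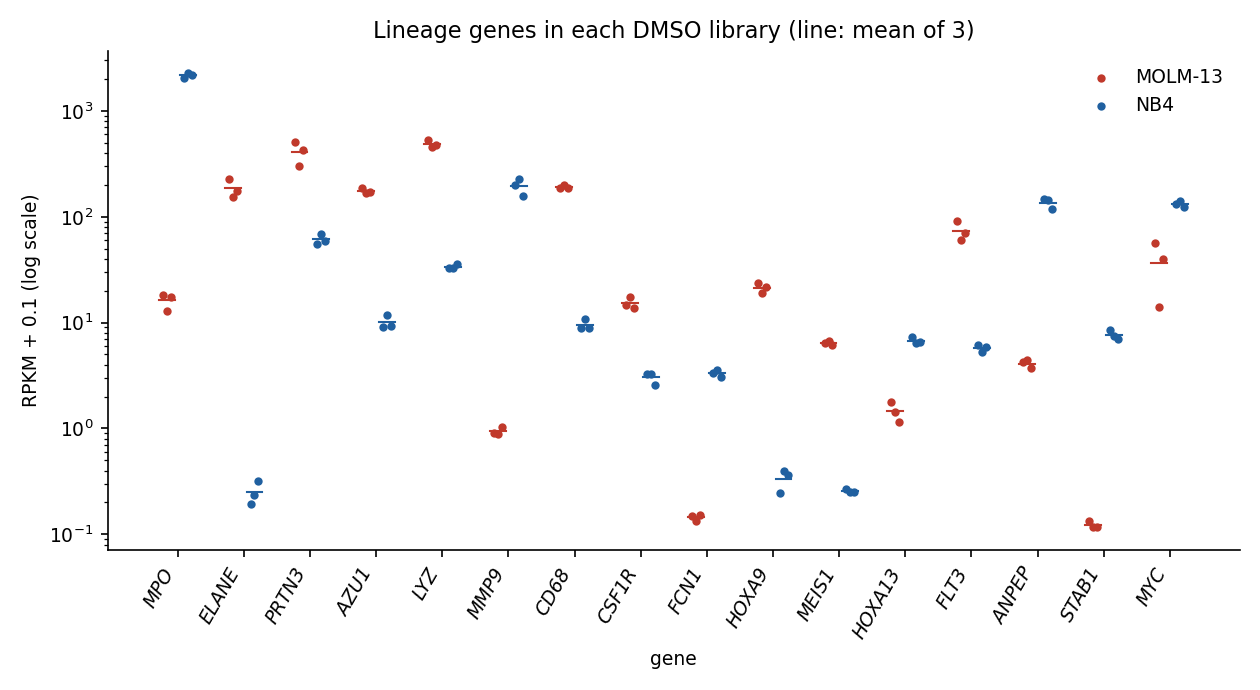
RPKM + 0.1 (log scale) of 16 lineage genes in each of the 3 MOLM-13 (red) and 3 NB4 (blue) DMSO libraries, with a line at the mean of 3. The genes were picked for display, and for each the libraries of the lines do not overlap, as for 79.0% of all genes tested. Both directions occur: MPO, MMP9, ANPEP and MYC are higher in NB4, and ELANE, LYZ, CD68 and FLT3 in MOLM-13.

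Markers of monocytes and macrophages were mostly higher in MOLM-13. Of 36 listed genes 24 passed the filter, 18 were higher in MOLM-13, 3 in NB4, and 3 were not called, with a median log2 difference of -2.08. The shares of 75% in MOLM-13 and 12.5% in NB4 stand beside 19.3% and 23.2% of all genes. Of 15 with at least 1 RPKM in each line, 12 were higher in MOLM-13 and 0 in NB4. CD68, a lysosomal glycoprotein of macrophages, was at 186, 201 and 189 RPKM in MOLM-13 and 8.84, 10.8 and 8.71 RPKM in NB4 (log2 difference -4.34 ± 0.125 (SE), adjusted p = 3.84e-10, limma). LILRB4, an inhibitory receptor of monocytic cells, had the largest difference in the list (-5.84), from 7.92 ± 0.973 RPKM in MOLM-13 to 0.0391 ± 0.00995 RPKM in NB4 (SD, n = 3). The Fc receptor FCGR2B (-4.67), the costimulator CD86 (-4.60) and the integrin ITGAX (-4.12) followed. CSF1R, the receptor of the growth factor that monocytes need, was at 15.2 ± 2.01 RPKM in MOLM-13 and 2.93 ± 0.418 RPKM in NB4. Among the members higher in NB4 were FCN1 (ficolin 1, 4.52) and KLF4 (1.40), a transcription factor of monocytes. FCN1 was at 0.0478, 0.0323 and 0.0532 RPKM in MOLM-13 and 3.22, 3.45 and 2.96 RPKM in NB4. The textbook markers CD14, CD163, VCAN, S100A12 and MRC1 were at most 0.533 RPKM on average in either line. They are picked members of a list in which 18 of 24 tested genes were higher in MOLM-13, and maturity was not tested. The summed level of the list ran from 625 to 682 RPKM over the MOLM-13 libraries and from 112 to 119 RPKM over those of NB4.

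HOXA genes and their partners were mostly higher in MOLM-13. HOXA9, a homeobox factor of myeloid progenitors, was at 23.4, 19.1 and 21.4 RPKM in MOLM-13 and 0.144, 0.294 and 0.266 RPKM in NB4, a log2 difference of -6.03 ± 0.198 (SE, adjusted p = 8.83e-10, limma). MEIS1, its DNA-binding partner, was at 6.36, 6.66 and 6.05 RPKM in MOLM-13 and 0.168, 0.150 and 0.151 RPKM in NB4 (-4.65). PBX3, another partner, was at 34.6 ± 4.12 and 1.47 ± 0.0887 RPKM (SD, n = 3, -4.46). Within the cluster the difference depended on the gene. HOXA3 (-5.13), HOXA5 (-4.54), HOXA6 (-4.21) and HOXA7 (-2.90) were far higher in MOLM-13, whereas HOXA4 and HOXA11 were only just past the limit (-1.28 and -1.04). HOXA13, at an end of the cluster, was at 1.68, 1.32 and 1.05 RPKM in MOLM-13 and 7.25, 6.28 and 6.46 RPKM in NB4. It was called higher in NB4 (2.24), and HOXA10, at 7.30 ± 1.012 and 13.2 ± 0.925 RPKM, was not called (0.85). The largest difference toward NB4 in this list, 3.75, was that of a further member not named here. Of 13 genes in this list 12 passed the filter, 9 were higher in MOLM-13 and 2 in NB4, with a median of -3.55. Only 5 of these reached 1 RPKM in each line, of which 3 were higher in MOLM-13 and 1 in NB4. Over the 12 tested, 75% were higher in MOLM-13 and 16.7% in NB4, beside 19.3% and 23.2% of all genes. The cluster lies on chromosome 7, where the median gene was higher in NB4 by 0.70. None of the 10 HOXB genes reached the filter, whereas HOXD13 from a further cluster was at 20.1, 21.6 and 22.3 RPKM in NB4 with 0 reads in all MOLM-13 libraries.

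Among 17 other genes known to be kept up by KMT2A fusions, 15 passed the filter, 10 were higher in MOLM-13 and 1 in NB4, with a median of -1.47 (7 and 1 of 12 with at least 1 RPKM in each line). Over the 15 tested, 66.7% were higher in MOLM-13 and 6.67% in NB4, beside 19.3% and 23.2% of all genes. The factors ZNF521 (-7.64) and MEF2C (-7.09) had the largest differences. MEF2C was at 18.1, 17.7 and 16.8 RPKM in MOLM-13 and 0.0535, 0.0160 and 0.0228 RPKM in NB4. The RNA-binding protein CPEB2 (-3.17), the cell cycle kinase CDK6 (-2.49) and the factor SATB1 (-2.22) were also called, and BAHCC1 was the gene higher in NB4, at 2.84 ± 0.0914 RPKM in MOLM-13 and 30.6 ± 2.15 RPKM in NB4 (SD, n = 3). MYB, a master factor of progenitors often named with these genes, stood at 103, 80.7 and 97.7 RPKM in MOLM-13 and 121, 93.0 and 116 RPKM in NB4, and the lines overlapped.

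Transcription factors of the myeloid lineage were called about as often as all genes. Of 43 listed factors 32 passed the filter, 19 were not called, 8 were higher in MOLM-13 and 5 in NB4, with a median of -0.43, beside 42.5% called over all genes. With at least 1 RPKM in each line the balance turned, to 4 higher in MOLM-13 and 5 in NB4 of 27. The largest differences toward MOLM-13 were those of TFEC (-5.29), the retinoic acid receptor RARG (-3.71), and the inhibitors of basic helix-loop-helix factors ID1 (-3.55) and ID2 (-2.83). Toward NB4 they were MYC (2.07), CBFB (2.02), the granulocyte factor CEBPE (1.52) and SOX4 (1.03). WT1 was called too (1.02), but SOX4 and WT1 sat at the limit and this count fell from 5 to 3 without MOLM-13 replicate 2 or without NB4 replicate 1. CBFB, the partner of the RUNX factors, was at 6.73 ± 1.33 RPKM in MOLM-13 and 27.4 ± 3.67 RPKM in NB4 (SD, n = 3), while RUNX1 was at 7.35 ± 0.863 and 7.18 ± 1.14 RPKM with overlapping groups. The genes joined in the NB4 fusion, PML and RARA, were at 4.91 ± 0.0835 and 13.7 ± 1.67 RPKM in MOLM-13 and at 6.79 ± 1.02 and 7.46 ± 1.47 RPKM in NB4, and neither was called.

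MYC varied between the libraries of MOLM-13. It stood at 56.5, 13.8 and 40.2 RPKM in MOLM-13 replicates 1 to 3 and at 133, 142 and 125 RPKM in NB4. Replicate 2 of MOLM-13 was far below the others, and the log2 difference of 2.07 ± 0.393 (SE, adjusted p = 6.21e-04, limma) became 1.48 without it, still called. The same library was lowest for the ribosome biogenesis genes that the study names, a list it chose from these cells, so its direction is not independent evidence. Their summed level ran from 157 to 313 RPKM over the MOLM-13 libraries and from 563 to 679 RPKM over those of NB4. Of the 13, all passed the filter, 10 were higher in NB4 (76.9%, beside 23.2% of all genes), and the median was 1.61. None was higher in MOLM-13, beside 19.3% of all genes. RRP9, a protein of the U3 snoRNP, was at 9.84, 3.66 and 10.1 RPKM in MOLM-13 and 35.0, 49.3 and 41.3 RPKM in NB4 (2.52). MRPL36 (2.32), a protein of the mitochondrial ribosome, and LYAR (2.18) and RCL1 (2.11), factors of nucleolar pre-rRNA processing, were the next largest. BOP1, PES1 and WDR46 were not called (0.091, 0.48 and 0.45), and BOP1 lies on chromosome 8.

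The surface of the cells differed in receptors for growth factors. FLT3, mutated in MOLM-13, was at 91.8, 59.8 and 70.5 RPKM in that line and 6.04, 5.13 and 5.84 RPKM in NB4 (log2 difference -3.66 ± 0.163 (SE), adjusted p = 7.70e-09, limma). The G-CSF receptor CSF3R (-2.90), the common beta chain CSF2RB (-2.65), the chemokine receptor CXCR4 (-2.67) and the lectin CLEC12A (-3.55) were also higher in MOLM-13. CD109 (-6.59) and CD52 (-4.24) had the largest differences with MOLM-13 above. CD33, the classic myeloid antigen, was at 32.3 ± 1.74 RPKM in MOLM-13 and 13.3 ± 0.570 RPKM in NB4 (SD, n = 3, -1.28). Toward NB4 stood ANPEP (CD13, an aminopeptidase), at 4.14, 4.29 and 3.59 RPKM in MOLM-13 and 147, 144 and 118 RPKM in NB4 (5.05), and the integrin chain ITGA4 (1.88). In all 18 of 31 genes passed the filter, 10 were higher in MOLM-13 and 2 in NB4, with a median of -1.34 (7 and 2 of 15 with at least 1 RPKM in each line). Over the 18 tested, 55.6% were higher in MOLM-13 and 11.1% in NB4, beside 19.3% and 23.2% of all genes. The progenitor markers CD34, KIT and PROM1 were at most 0.0671 RPKM on average in both lines. CD44 was level, at 30.8 ± 2.79 and 30.8 ± 1.48 RPKM.

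Among genes known to report signalling below FLT3, most of those called could be grouped by branch. SOCS3 (-4.37), PIM1 (-3.25), SOCS2 (-2.93), SOCS1 (-2.11), CISH (-2.07) and OSM (-1.97), which STAT5 is known to induce, were higher in MOLM-13. PIM1, a survival kinase, was at 81.1, 52.1 and 71.8 RPKM in MOLM-13 and 7.64, 7.59 and 5.86 RPKM in NB4. DUSP4 (4.99), SPRY4 (3.19), DUSP6 (2.93), CCND1 (2.77), ETV4 (1.99) and SPRY2 (1.19), which the ERK pathway is known to induce, were higher in NB4, as was STAT5A (1.20). DUSP6, a phosphatase that turns ERK off, was at 7.19, 6.39 and 6.48 RPKM in MOLM-13 and 58.2, 48.2 and 49.1 RPKM in NB4. Of 26 genes 24 passed the filter, 7 were called in each direction (5 in each of 20 with at least 1 RPKM in each line), and the median was 0.62. The share was 29.2% each way, not far from the 23.2% of all genes higher in NB4 and 19.3% in MOLM-13. Over all genes with at least 1 RPKM in each line, 1757 and 1286 of 8646 were called. PHLDA1 was the seventh gene higher in MOLM-13 (-1.15) and does not follow the grouping by branch. The 10 members not called were not placed in a branch. The grouping by branch was read after the values were seen, rests on the called genes named, and was not tested.

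Genes described as marking promyelocytic leukemia stood on both sides. STAB1 (a scavenger receptor) was at 0.0343, 0.0174 and 0.0163 RPKM in MOLM-13 and 8.35, 7.38 and 6.90 RPKM in NB4 (5.96). IGFBP2 (5.02), HGF (4.07) and LGALS12 (3.71) were higher in NB4 as well. CLEC11A (-1.12) and TRIB1 (-1.34) were higher in MOLM-13, CCNA1 was at 19.4 ± 1.49 and 17.8 ± 0.420 RPKM, and FGF13 and PTGDS did not reach the filter. So 4 of the 7 tested were higher in NB4 and 2 in MOLM-13, and leaving out MOLM-13 replicate 3 reduced the 2 to 1. Of the 5 with at least 1 RPKM in each line, 2 were higher in each. Over the 7 tested, 57.1% were higher in NB4 and 28.6% in MOLM-13, beside 23.2% and 19.3% of all genes. The bleeding of that disease is known to involve tissue factor and fibrinolysis, yet this list pointed to MOLM-13: 8 of 11 tested genes were higher there (5 of 7 with at least 1 RPKM in each line) and only ANXA2, the plasminogen receptor subunit annexin A2, in NB4 (2.05). The shares were 72.7% in MOLM-13 and 9.09% in NB4, beside 19.3% and 23.2% of all genes. F3, tissue factor, was at 26.2, 28.2 and 25.4 RPKM in MOLM-13 and 14.0, 12.4 and 12.2 RPKM in NB4 (-1.04). PLAU (-2.85) and PLAUR (-3.48), urokinase and its receptor, and S100A10, the other subunit of the plasminogen receptor (-1.31), were also higher in MOLM-13.

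Genes that write, erase and read m6A, the RNA mark the study is about, were called about as often at baseline as all genes. FTO mRNA was at 1.09, 0.938 and 1.006 RPKM in MOLM-13 and 2.86, 2.52 and 2.81 RPKM in NB4. Every NB4 library was above every MOLM-13 library, the log2 difference was 1.35 ± 0.151 (SE, adjusted p = 1.25e-05, limma), and the ratio of the means was 2.696. With a pseudocount of 1 in place of 0.1 the log2 difference was 0.89 and the call was lost. The FTO gene overlaps RPGRIP1L on the other strand. ALKBH5, the other m6A eraser, was at 20.8, 23.03 and 22.2 RPKM in MOLM-13 and 29.4, 27.4 and 27.1 RPKM in NB4 and not called. METTL3 and METTL14, the catalytic pair of the writer, were level (0.033 and -0.059), at 12.7 ± 1.03 and 8.76 ± 0.382 RPKM in MOLM-13 and 12.9 ± 0.479 and 8.44 ± 1.04 RPKM in NB4. VIRMA, the scaffold of the writer, was at 28.7, 34.1 and 28.4 RPKM in MOLM-13 and 8.43, 6.95 and 8.26 RPKM in NB4 (-1.93), and the reader YTHDF3 was also higher in MOLM-13 (-1.79). Both lie on chromosome 8. The reader IGF2BP1, which stabilises MYC mRNA, went from 7 reads over the 3 MOLM-13 libraries to 35.8, 28.2 and 34.3 RPKM in NB4 (8.17). IGF2BP3 (2.33) was higher in NB4 too, whereas IGF2BP2, listed here with the targets of KMT2A fusions, was higher in MOLM-13 (-1.47). The reader YTHDF1 (1.82), the cap methyltransferase PCIF1 (1.53), the writer subunits RBM15B (1.43) and CBLL1 (1.05) and the rRNA methyltransferase METTL5 (1.22) complete the genes higher in NB4. All 25 genes passed the filter, 8 were higher in NB4, 2 in MOLM-13, and the median was 0.34, beside 42.5% called over all genes. Of 24 with at least 1 RPKM in each line, 7 were higher in NB4 and 2 in MOLM-13.

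FP54 recruits the VHL ubiquitin ligase, and few of its subunits were called. Of 9 tested, all with at least 1 RPKM in each line, 1 was higher in MOLM-13 (11.1%, beside 19.3% of all genes). None was called higher in NB4, beside 23.2% of all genes. The log2 differences ran from -1.25 to 0.93. VHL was at 18.6, 18.02 and 20.2 RPKM in MOLM-13 and 23.3, 22.3 and 20.6 RPKM in NB4 (0.22, not called). ELOC, elongin C, was the single called gene among 9 tested, at 16.6, 13.2 and 17.3 RPKM in MOLM-13 and 6.50, 6.52 and 6.56 RPKM in NB4 (-1.25), and it too lies on chromosome 8. ELOB, elongin B, was at 0.93 and fell short of the limit, but passed it when MOLM-13 replicate 1 or NB4 replicate 1 was left out.

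Interferon-stimulated genes were called higher in NB4 more often than genes in general. Of 46 listed genes 33 passed the filter, with a median of 1.03. Of these, 17 were higher in NB4 (51.5%, beside 23.2% of all genes) and 4 in MOLM-13 (12.1%, beside 19.3%). With at least 1 RPKM in each line the counts were 10 and 3 of 24, beside 1757 and 1286 of 8646 over all genes. IFI6 was at 7.10, 5.64 and 8.93 RPKM in MOLM-13 and 54.6, 65.5 and 44.2 RPKM in NB4 (2.91). ISG15, a ubiquitin-like modifier, was at 4.53 ± 0.0651 and 34.6 ± 6.90 RPKM (SD, n = 3, 2.89). The largest differences were those of the RNA sensors OAS2 (3.75) and OAS3 (3.65), and of LGALS3BP (3.47) and IFIT5 (3.46), all of them at most 0.119 RPKM on average in MOLM-13. STAT2, a factor of the interferon response, was higher in MOLM-13 (-1.85), at 14.1, 16.2 and 14.3 RPKM there and 4.53, 4.12 and 3.52 RPKM in NB4. TRIM22 (-1.81), XAF1 (-1.56) and IFITM3 (-1.29) were the other genes higher in MOLM-13.

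Of 17 genes of class II antigen presentation 4 passed the filter, and CD74 (lower in NB4) and the factor RFX5 (1.75) were called. All 4 had at least 1 RPKM in each line, and 25% were called each way, beside 23.2% and 19.3% of all genes. CD74, the invariant chain, was at 50.1, 49.3 and 52.8 RPKM in MOLM-13 and 1.52, 1.58 and 0.831 RPKM in NB4 (log2 difference -5.22 ± 0.209 (SE), adjusted p = 3.38e-09, limma). The class II chains themselves stayed under the filter, with HLA-DRA and HLA-DQB1 at 1.67 and 1.67 RPKM in MOLM-13 and 0.0505 and 0.00624 RPKM in NB4, and their activator CIITA at 0.253 and 0.0262 RPKM. Of class I, HLA-C (-2.36), HLA-E (-1.32) and HLA-B (-1.12) were higher in MOLM-13, and B2M, the light chain, was at 93.1 ± 11.4 and 119 ± 13.4 RPKM. NLRC5, the activator of class I, went the opposite way (2.67), at 0.869, 0.783 and 0.917 RPKM in MOLM-13 and 6.36, 5.96 and 5.58 RPKM in NB4. HLA genes share long stretches and are polymorphic, so their levels are uncertain.

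In leukotriene and prostaglandin synthesis several genes were near 0 in NB4. ALOX5AP, the protein that hands arachidonic acid to 5-lipoxygenase, was at 109, 113 and 95.1 RPKM in MOLM-13 and 0.807, 0.531 and 0.586 RPKM in NB4 (-7.17). ALOX12, 12-lipoxygenase, was at 19.2, 8.66 and 18.01 RPKM in MOLM-13 with 0 reads in NB4, which makes it at least 279-fold higher in MOLM-13 against a floor of 3 reads per library. ALOX5 itself (-3.80), the phospholipase PLA2G4A (-3.77) and PTGS1 (-2.06) were also called, 5 of 7 tested in all but only 1 of 3 with at least 1 RPKM in each line, while LTA4H and TBXAS1 were not called (0.66 and 0.27). Over the 7 tested, 71.4% were higher in MOLM-13, beside 19.3% of all genes. In the BCL2 family 6 of 13 tested genes (46.2%) were called, near the 42.5% of all genes. All 6 were higher in MOLM-13, beside 19.3% of all genes, and none in NB4, beside 23.2%. BCL2A1 (-2.88) and MCL1 (-1.04), which protect from death, were among them together with BMF (-2.70), BBC3 (-1.85) and BAX (-1.67), which promote it. BCL2 was at 10.96, 6.17 and 9.27 RPKM in MOLM-13 and 7.75, 5.45 and 8.13 RPKM in NB4, with overlapping groups.

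**Figure D3:**
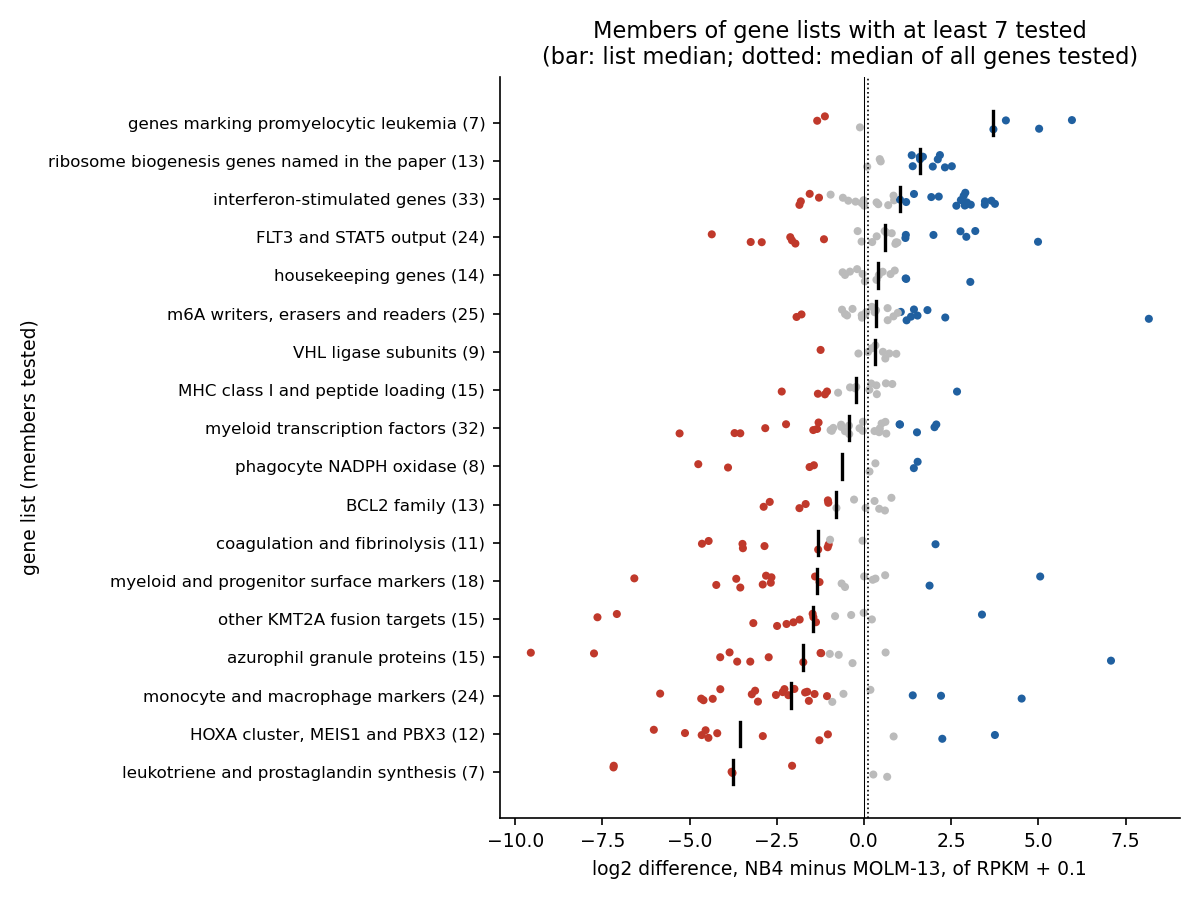
Log2 difference (NB4 minus MOLM-13, x axis) of the tested members of each list with at least 7 tested (y axis), coloured by call as blue for NB4 and red for MOLM-13, with a bar at the list's median. List medians run from -3.77 for leukotriene and prostaglandin synthesis to 3.71 for genes marking promyelocytic leukemia, and the dotted line is the median of all genes, 0.12.

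Markers of other blood lineages were used to check the labels. None of 13 erythroid genes reached the filter, and the globins HBA1, HBA2 and HBB were listed at 0 RPKM in all 6 libraries. T and NK cell genes were mostly absent, with CD3E, LCK and KLRD1 at most 0.0225 RPKM. CD3D (3.38) and PRF1 (4.59), at 6.35 ± 0.528 and 5.89 ± 0.218 RPKM in NB4 (SD, n = 3), were called there, and NKG7, at 76.5 ± 2.72 and 40.3 ± 12.8 RPKM, was not. Of the B cell genes CD79B alone passed the filter (4.66), and of the megakaryocyte genes ITGA2B alone (2.48). HDC, histidine decarboxylase of basophils and mast cells, was at 0.745, 0.646 and 0.829 RPKM in MOLM-13 and 26.3, 22.9 and 21.8 RPKM in NB4 (4.82), while EPX, eosinophil peroxidase, was at 60.3 ± 2.34 and 4.75 ± 0.370 RPKM (-3.64). Eosinophil and basophil genes thus stood on both sides, with 4 of 6 tested higher in MOLM-13 (1 of 2 with at least 1 RPKM in each line) and HDC in NB4. The shares were 66.7% and 16.7%, beside 19.3% and 23.2% of all genes. The summed level of the B cell list ran from 0.943 to 1.10 RPKM in MOLM-13 and from 4.55 to 6.95 RPKM in NB4, that of the T and NK cell list from 74.2 to 79.1 and from 43.6 to 68.5 RPKM, and the part of other cells in the differences was not tested. Among 14 common reference genes 3 were called higher in NB4, with PPIA and HPRT1 among them, and none in MOLM-13, with a median of 0.39. The share higher in NB4 (21.4%) was near that of all genes (23.2%), whereas 19.3% of all genes were higher in MOLM-13. GAPDH, at 1624, 1775 and 1478 RPKM in MOLM-13 and 966, 1232 and 999 RPKM in NB4, differed by -0.61 and ACTB by 0.88.

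In the band 9p21, which is often lost in leukemia, MTAP was at 2.40, 1.40 and 2.19 RPKM in MOLM-13 and had 4 reads over the 3 NB4 libraries (-4.29). It lies just inside the filter, with a mean of 1.00 RPKM over the 6 libraries. Its neighbours KLHL9 (2.21) and FOCAD (1.70) were higher in NB4, at 13.05 ± 2.704 and 7.73 ± 1.18 RPKM, and MLLT3, the fusion partner in MOLM-13, was at 4.82 ± 0.604 and 5.06 ± 0.455 RPKM. CDKN2A and CDKN2B were listed at 0 RPKM in all 6 libraries, and whether the genes are present in the genome was not tested.

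Some genes were on in a single line. In MOLM-13, 83 of the tested genes had at most 3 reads in every library and 27 of these had 0 reads, and in NB4 the counts were 99 and 22. CYTL1, a secreted protein first found in progenitor cells, led in NB4 at 336, 348 and 329 RPKM with 0 reads in MOLM-13, at least 1817-fold higher. The homeobox genes RHOXF2B (at least 1036-fold) and RHOXF2 (at least 546-fold), which are near-identical copies whose reads cannot be assigned with certainty, and UNCX, at 134, 226 and 124 RPKM in NB4 with 1 read in MOLM-13, followed. GTSF1, a germ line factor of the piRNA pathway, had 47.6, 49.0 and 47.7 RPKM in NB4 and 1 read in MOLM-13. RETN (resistin), IGF2BP1, GJA1 (connexin 43, at least 459.7-fold), CPXM1 and HOXD13 (at least 280.1-fold) complete the 10 largest toward NB4 on the log2(RPKM + 0.1) scale, and the fold bounds of genes at 0 reads put them in another order. Toward MOLM-13 these were ELANE, ORM1, METTL7B, ARMCX3, LAMP5, PPDPF, APOC1, BEX1, CYP27A1 and EPB41L3. ORM1, an acute phase glycoprotein, was at 62.6, 54.5 and 69.8 RPKM in MOLM-13 with 0 reads in NB4, at least 370.3-fold higher, and ARMCX3, a mitochondrial membrane protein, at 33.6, 39.1 and 32.5 RPKM with 0 reads, at least 1024-fold. BEX1 was uneven in MOLM-13, at 69.0, 29.9 and 77.5 RPKM. Some off genes were neighbours: HOXC9 and HOXC10, PROSER1 and NHLRC3, and ZNF432 and ZNF841 were all off in MOLM-13, and JAG2 with NUDT14, ORM1 with ORM2, and TFEC with TES in NB4. The pairs were chosen with their values in view.

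The most abundant messages were of the mitochondrial genome and the ribosome. MT-CO1 led in both lines, at 3244, 3376 and 2523 RPKM in MOLM-13 and 4138, 4520.0 and 4374 RPKM in NB4. MT-CO2 (1.23), MT-ATP6 (1.67) and MT-CO3 (2.00) were called higher in NB4, MT-ND4 and MT-CO1 were not (0.86 and 0.52). All 13 genes of the mitochondrial genome were positive and 8 were called higher in NB4 (61.5%, beside 23.2% of all genes), a list added after the values were seen. Under quantile normalization, which forces the top ranks to be equal, MT-CO1, first in all 6 libraries, differed by 0 and MT-CO2 was no longer called (0.58). RPL13A and RPS12, ribosomal proteins of the large and small subunit, were among the 5 highest of MOLM-13, at 1868, 2452 and 2287 and 2251, 1989 and 2114 RPKM against 792, 1232 and 919.7 and 750.0, 913 and 832 RPKM in NB4. Of 78 tested ribosomal protein genes, also added later, 14 were higher in MOLM-13 (17.9%, beside 19.3% of all genes) and 1 in NB4, with a median of -0.47.

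Genes of chromosome 8 were lower in NB4 along its whole length. The 347 tested genes had a median log2 difference of -1.32, between -1.39 and -1.21 in the 9 pairings of an NB4 with a MOLM-13 library, and 298 of them were negative. MOLM-13 was called higher for 215, or 62.0%, against 17.96% over the 9283 genes of the other autosomes. In 10 consecutive stretches of 34 or 35 genes the median ran from -1.69 to -0.67, so no stretch reached the median of all genes. Against the other autosomes, the median gene of chromosome 8 stood 0.85 to 0.88 above in the MOLM-13 libraries and 0.53 to 0.61 below in those of NB4 on the log2 scale, without overlap. Only 18 genes of this chromosome were called higher in NB4, among them MYC and DUSP4.

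Chromosome 19 was next, with a median of -0.71 over 773 genes (-0.87 to -0.49 in the 9 pairings) and 313 genes called higher in MOLM-13 against 98 in NB4. There the level changed from stretch to stretch, between -1.41 and 0.32 over 10 stretches of 77 or 78 genes. Chromosome 7 stood highest at 0.70 over 480 genes, with 197 called higher in NB4 and 45 in MOLM-13, and its stretches ran from 0.29 to 1.07. The remaining autosomes lay between -0.18 and 0.51. The copy number of these chromosomes was not measured, and its part was not tested.

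**Figure D4:**
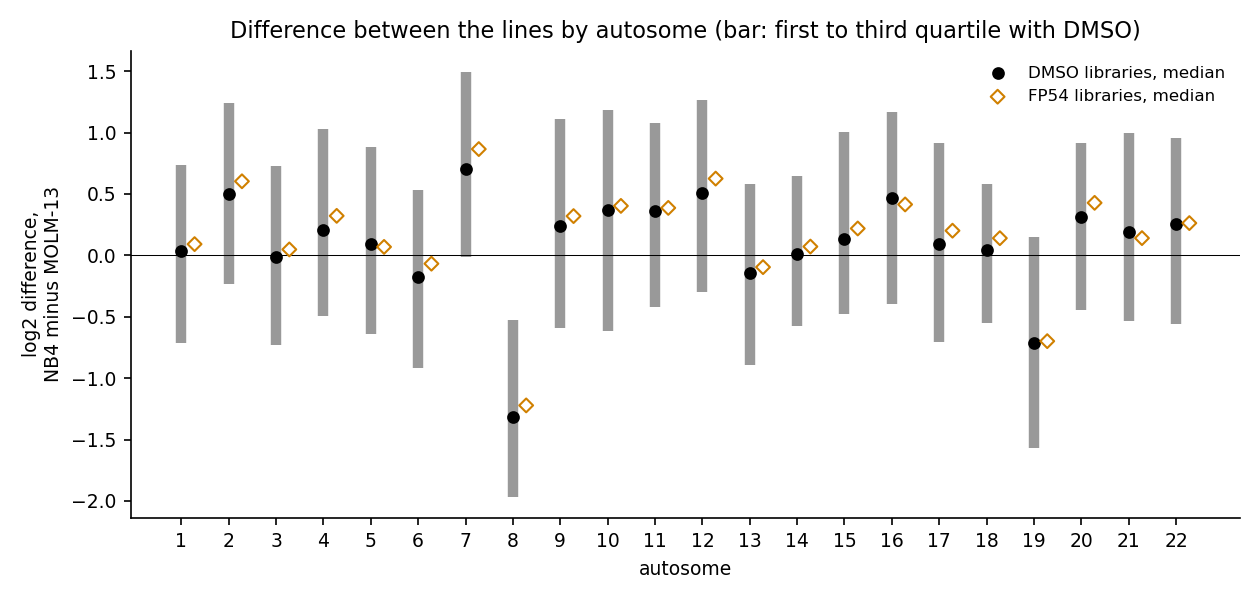
Median log2 difference (NB4 minus MOLM-13, y axis) of the tested genes of each autosome (x axis) in the DMSO libraries (black, with a grey bar from the first to the third quartile) and in the FP54 libraries (open diamonds). Chromosome 8 lies lowest at -1.32 and -1.22, chromosome 19 follows at -0.71 and -0.70, and chromosome 7 is highest at 0.70 and 0.87.

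The difference between the lines was then read in libraries that the DMSO comparison did not use. With FP54 in both lines, 4265 of the same genes were called (42.8%). Of those higher in NB4 with DMSO 86.3% were again called there, and of those higher in MOLM-13 76.1%. Conversely, 77.6% of the genes called higher in NB4 with FP54 and 86.1% of those higher in MOLM-13 had been called so with DMSO. Most FP54 libraries were shallower than those with DMSO. They held from 5829730 to 19191055 reads on genes in MOLM-13 and from 10595647 to 13071303 in NB4. In NB4 they also carried more reads on olfactory receptor genes, which these cells should not use, at 0.0497 to 0.0548 RPKM on average over 415 genes against 0.00169 to 0.00373 RPKM with DMSO, and the part of this in the differences was not tested. ELANE (-10.07), MPO (8.18), HOXA9 (-5.63), MEIS1 (-5.13), FLT3 (-3.71), ANPEP (6.49), IGF2BP1 (8.36) and MYC (2.66) kept log2 differences of the same sign and were called again. FTO, at 0.94, kept its sign but fell short of the 2-fold limit.

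**Figure D5:**
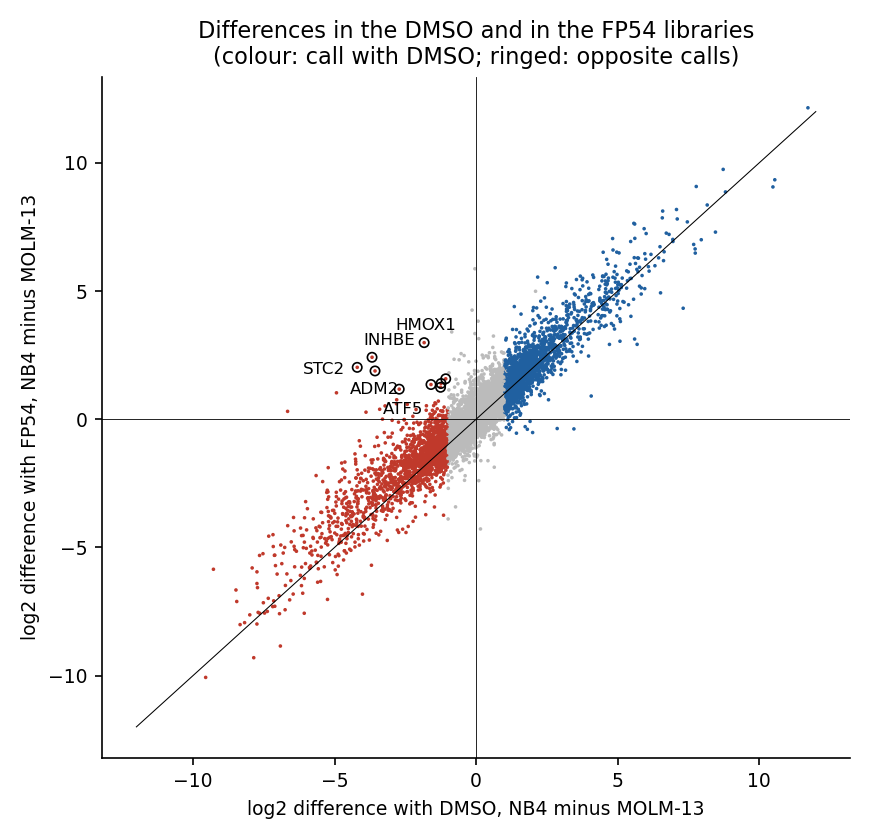
Log2 difference between the lines in the DMSO libraries (x axis) and in the FP54 libraries (y axis) for 9955 genes, coloured by the call with DMSO, with the diagonal marking equal differences. Most genes follow the diagonal, and the 9 ringed genes, with STC2, INHBE, ADM2, ATF5 and HMOX1 labelled, are called for MOLM-13 with DMSO and for NB4 with FP54.

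Genes near the filter give a sense of what was left out. The nearest genes below it were FRS3, PCGF5 and FAM124A, with means of 0.999, 0.998 and 0.998 RPKM over the 6 libraries, and the nearest above were SLITRK4, MTAP and THBS4. FAM124A, at 1.84 RPKM in MOLM-13 and 0.156 RPKM in NB4, shows that a gene on in a single line can fall outside.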

How the data were processed

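Messenger RNA of NB4 and MOLM-13 cells was sequenced by the authors after poly(A) selection and stranded library preparation. Per the study's methods and the labels, reads were trimmed (Cutadapt 4.8), cleared of duplicates (Clumpify), aligned to hg38 (STAR 2.7.11b) and counted on protein-coding genes of GENCODE (featureCounts 2.0.3), and the authors deposited RPKM values, 1 table per line. The submitters' processing notes also list SAMtools 1.21, DESeq2 and MACS2 without a role.

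The tables were joined by gene symbol, genes of chromosome Y were left out, and genes with a mean of at least 1 RPKM over the 6 DMSO libraries were tested with limma 3.58.1 (R 4.3.3) on log2(RPKM + 0.1) with an intensity trend in eBayes. The fit was also run on simulated counts with 200 changed genes and a fixed spread between libraries. In the real data 42.5% of genes were called and MOLM-13 replicate 2 stood apart, so that run says little about the calls made here. Fold changes on this scale understate those of low genes. RPKM steps gave whole reads, within 0.02 of a read, for 98.2% to 98.7% of low values per library, from which depth, floors of 3 reads and the limma-voom alternative were taken. Floors and bounds cover counting error only. Gene positions are those of the reference annotation for GRCh38.

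Genes were named by a rule: the 10 largest differences in each direction without overlap, members of the 27 gene lists, FTO, the 5 most abundant genes of each line, and the 5 most abundant with at most 3 reads in every library of the other line. Genes at the filter, neighbouring off genes and those called in opposite directions with FP54 were named besides, and the ribosomal protein and mitochondrial lists were added after the values were seen. The members and lists were chosen with earlier results of these data known. Alternatives changed the pseudocount, filter, scaling, variance model, block, libraries and cutoff. Some genes are not reported here.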

Additional observations from a re-analysis of the deposited data

Results flagged for a closer look

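A group of 9 genes was called between the lines in opposite directions in the DMSO and in the FP54 libraries. All 9 also had an adjusted p below 0.05 for the interaction in a limma fit of the same 12 libraries. Opposite calls at the 2-fold limit already require a large change, so that test could hardly fail and adds no support. All 9 were higher in MOLM-13 with DMSO and higher in NB4 with FP54, and none went the other way. The calls of SESN2 and SLC7A11 with DMSO were lost with a pseudocount of 1 (-0.83 and -0.75), and that of SLC7A11 also without MOLM-13 replicate 1 (-0.99) or NB4 replicate 2 (-0.94). They are STC2 (stanniocalcin 2, a secreted glycoprotein), INHBE (an inhibin chain), ADM2 (adrenomedullin 2), ATF5 (a transcription factor), HMOX1 (heme oxygenase 1), MEX3A, TMEM154, SESN2 (sestrin 2) and SLC7A11 (the cystine and glutamate exchanger). STC2 was at 15.1 ± 2.93 RPKM in MOLM-13 and 0.740 ± 0.231 RPKM in NB4 with DMSO (SD, n = 3, log2 difference -4.20), and at means of 3.41 and 13.8 RPKM with FP54 (2.02). ATF5 was at 68.8 ± 6.27 and 10.4 ± 0.984 RPKM with DMSO (-2.71) and at 47.5 and 107 RPKM with FP54 (1.17). HMOX1 was at 2.43 ± 0.819 and 0.620 ± 0.253 RPKM with DMSO (-1.83) and at 4.67 and 35.8 RPKM with FP54 (2.99). For these genes the difference between the untreated lines cannot stand for their difference under treatment. The cause was not tested.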

How the results depend on the processing

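The number of called genes stayed within 1.5 times the reported one (4230, of which 2307 higher in NB4 and 1923 in MOLM-13) with a pseudocount of 1 or 0.01, a filter of 1 RPKM in each line, median-ratio scaling (2156 and 2036), quantile normalization (2193 and 1995), eBayes without a trend or with robust estimation, limma-voom on recovered reads (2354 and 1963) and all 12 libraries in 1 fit. Leaving out 1 library gave 3971 to 4370 genes, 2087 to 2431 in NB4 and 1884 to 1989 in MOLM-13. Replicate numbers did not pair the libraries, since the deviations of same-numbered libraries correlated at 0.029, -0.20 and -0.14, and with the replicate number as a block 4230 genes were called. The number moved with the filter and the cutoff. Without a filter MOLM-13 was the higher line for 2891 genes. A mean of at least 5 RPKM gave 2484 genes (1381 in NB4 and 1103 in MOLM-13), an unadjusted p below 0.01 with a log2 difference of at least 0.5 gave 6554 (3594 and 2960), an adjusted p below 0.05 with no minimum gave 7550 (4127 and 3423), and a log2 difference of at least 2 gave 1571 (724 and 847). Of the 191 distinct list members called, 118 passed that last limit, and leaving out 1 library gave 187 to 193. With FP54 the count ran from 4161 to 4436 and the median of chromosome 8 with DMSO from -1.35 to -1.26 on leaving out 1 library.

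Named genes changed their call mainly at the 2-fold limit. With a pseudocount of 1, which shrinks low genes, the calls of FTO (0.89), IFITM3 (-0.73), KLF4 (0.82), HOXA11 (-0.94), F3 (-0.99), PHLDA1 (-0.94), SPRY2 (0.996), SESN2 (-0.83), SLC7A11 (-0.75), CBLL1 (0.99), SOX4 (0.87) and WT1 (0.88) were lost, and median-ratio scaling and quantile normalization also lost those of CBLL1, SOX4 and WT1. The same scalings gained those of CTSG (-1.05 and -1.06), NKG7 (-1.03 and -1.04), PTX3 (-1.03 and -1.009) and SPI1 (-1.02 and -1.04), and quantile normalization that of ACTB (1.04). Without MOLM-13 replicate 2 the calls of HPRT1 (0.98), MCL1 (-0.94), SOX4 (0.93) and WT1 (0.76) were lost and that of CTSG (-1.15) was gained. Without NB4 replicate 2 MCL1 (-0.93) and SLC7A11 (-0.94) were lost, and CTSG (-1.08), NKG7 (-1.21), SPI1 (-1.09) and RARA (-1.002) were gained. Without MOLM-13 replicate 1 SLC7A11 (-0.99) was lost, and SPI1 (-1.02), PTX3 (-1.001) and ELOB (1.010) were gained, and without MOLM-13 replicate 3 CBLL1 (0.97) and CLEC11A (-0.98) were lost and PTX3 (-1.04) was gained. Without NB4 replicate 1 CBLL1 (0.96), SOX4 (0.99) and WT1 (0.97) were lost and ELOB (1.008) was gained. The count of ribosomal protein genes higher in NB4 ran from 0 to 2 over these libraries. Genes close to 0 changed sign: CD44 under median-ratio scaling (-0.061) and quantile normalization (-0.053), METTL3 likewise (-0.031 and -0.060), and on leaving out 1 library BOP1 (-0.15 to 0.27), CD44 (-0.059 to 0.070), METTL3 (-0.023 to 0.093), METTL14 (-0.15 to 0.025), MLLT3 (-0.014 to 0.16) and RUNX1 (-0.15 to 0.082). None of these was called.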
